A study of Homo sapiens with 6 samples.

Results

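The ubiquitin-specific protease (USP) genes were followed in U87 cells with and without PRMT6 knockdown. The members were the protein-coding genes whose symbol reads USP, then a number, then at most an X or an L, and 51 of the 60612 gene identifiers in the count table met this rule. U87 is a permanent cell line from a human glioblastoma. RNA was sequenced from 3 NC libraries, of cells given a Scramble shRNA lentivirus, and 3 shPRMT6 libraries, of cells given a PRMT6 shRNA lentivirus, with polybrene used in both groups. The methods describe independent replicates of the knockdown and the control. The labels number the knockdown libraries as shRNA-1, shRNA-2 and shRNA-3 and do not say whether the number marks a replicate or a different shRNA. If it marks different shRNAs, their differences are part of the spread within shPRMT6. The comparison asked how suppressing PRMT6, an arginine methyltransferase, changes RNA levels in these cells.

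USP enzymes form the largest family of human deubiquitinases. They are cysteine proteases that remove ubiquitin from proteins or trim ubiquitin chains, and thereby oppose the E3 ubiquitin ligases that attach it. Individual members act on histones, DNA repair factors, transcription factors, receptors on endosomes, the proteasome and innate immune signalling, and several depend on partner proteins for their activity. RNA levels say nothing of the activity of these enzymes or of the amount of protein.

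The total count was 56388161 to 75887696 in NC and 61805330 to 67630740 in shPRMT6. Of all genes, 18106 passed the filter on low counts and were tested in edgeR by its quasi-likelihood method, with p values adjusted over all of them by Benjamini and Hochberg. PRMT6, the targeted gene, fell from 8.17 to 4.46 CPM (counts scaled to library size by the TMM method; log2 fold change -0.87, SE 0.187, edgeR adjusted p = 0.0225), and did not pass without NC replicate 1, shPRMT6 replicate 1 or shPRMT6 replicate 2. In bulk RNA, a change in the number of cells in a state and a change in RNA per cell cannot be told apart. Of 8 astroglial and glioma markers none passed the test. VIM and CD44 were abundant, GFAP had 11 to 60 reads in a library, and S100B and AQP4 had none. The tumour suppressor genes CDKN2A and CDKN2B, which U87 lacks, had at most 4 reads. Of 3 epithelial markers 2 fell (CDH1 and KRT8), with a summed level of 6.86 to 8.39 CPM in NC and 2.51 to 4.12 CPM in shPRMT6, and each passed in 1 of 6 fits that left out a library. Their part in the results was not tested. Of 3 immune markers, PTPRC had at most 4 reads and CD3E none, while CD68, a lysosomal protein abundant in macrophages, stood at 148 to 256 CPM in NC and 144 to 316 CPM in shPRMT6 (log2 fold change -0.08, SE 0.355, edgeR adjusted p = 0.898).

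USP RNA levels covered a wide range in U87 cells. As means over the 6 libraries in FPKM, a length-corrected level, 9 members lay at 10 or more, 31 between 1 and 10, and 11 under 1. USP5, which disassembles free ubiquitin chains, had the highest level (32.1 ± 2.84 FPKM in NC and 30.4 ± 0.453 in shPRMT6, SD, n = 3). It was followed by USP1 (19.9 FPKM over all libraries), USP22 (19.7), USP14 (17.9) and USP11 (14.3). USP22 and USP1 overlapped in NC (24.2 ± 1.11 and 23.9 ± 1.78 FPKM, SD, n = 3), so their order there is not resolved, and both were above USP14. In shPRMT6 every library of USP14 was above every library of either gene. The summed FPKM of the family was 281, 299 and 299 in NC and 274, 276 and 290 in shPRMT6, and the groups overlap. The 5 highest members made up 37.1% to 40.0% of that sum in NC and 32.9% to 34.0% in shPRMT6. Of these 5 members, USP1, USP22 and USP11 fell, whereas USP5 and USP14 did not pass the test.

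**Figure D1:**
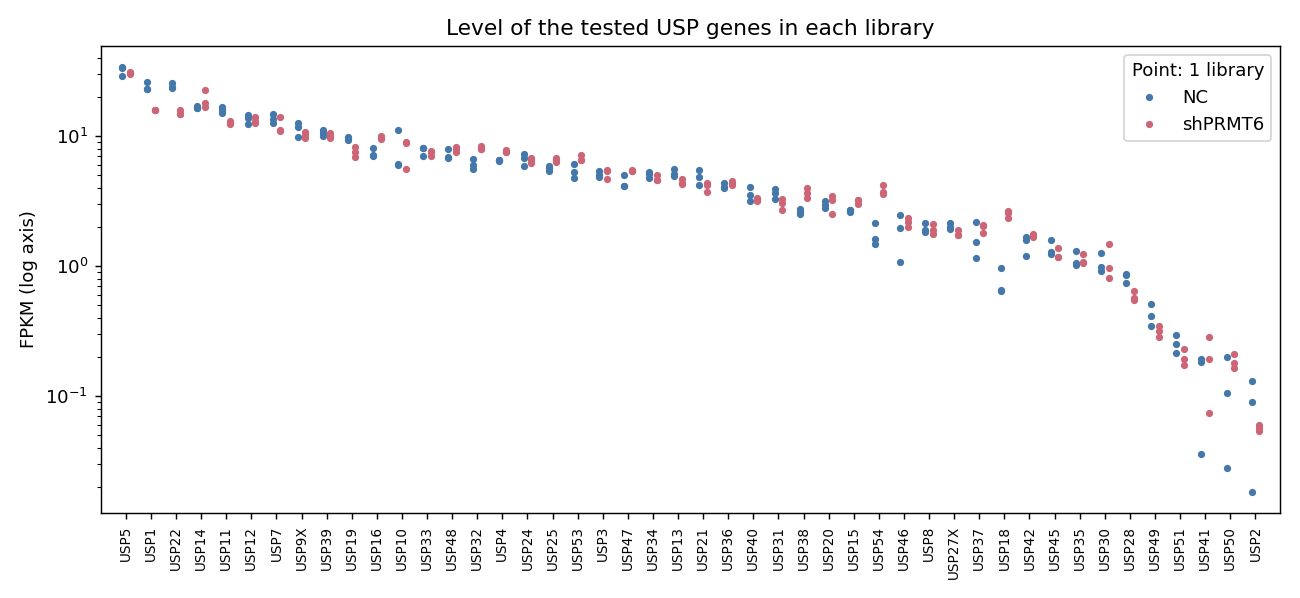
FPKM of the 46 tested USP genes on a log axis, ordered by the mean over all libraries, with a point for each of the 3 NC and 3 shPRMT6 libraries. USP5 has the highest level (31.3 FPKM over all libraries), and USP1, USP22 and USP11, in the upper part of the range, have their shPRMT6 points under the NC points.

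Members at or near 0 were also described. USP6, USP26 and USP29 had no read in any library. With 3 counts as the limit of a count of 0, this cannot separate absence from a very low level. USP44, which acts on histone H2B, had 9 reads in shPRMT6 replicate 3 and none elsewhere. USP43 had 12, 8 and 8 reads in NC and 4, 16 and 4 in shPRMT6. These 5 members did not pass the filter and were not tested.

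Of the 46 tested members, 11 passed an adjusted p of 0.05, of which 7 rose and 4 fell. That is 23.9% of the tested members, against 18.6% of all genes tested (9.51% higher and 9.06% lower), and nothing particular to the family is read from it. The groups did not overlap for all 11, and for 19 of the 46 tested members (41.3%), against 40.2% of all genes. At an unadjusted p under 0.05, 17 members passed, against 32.6% of all genes. The median log2 fold change was -0.01 over the members and -0.01 over all genes, with 23 members above 0 and 23 below. The median size of the log2 fold change was 0.23 for the members and 0.31 for all genes. USP28, USP13, USP53, USP25 and USP47 had adjusted p values between 0.05 and 0.1. In the 6 fits that left out 1 library, USP22, USP1, USP18 and USP54 passed each time, USP38 passed in 3, USP11, USP16 and USP32 in 2, USP19 in 1, and USP4 and USP15 in none. The member count lay between 4 and 10 in these fits, with 4 without NC replicate 3 or shPRMT6 replicate 3 and 5 without shPRMT6 replicate 1 or shPRMT6 replicate 2.

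**Figure D2:**
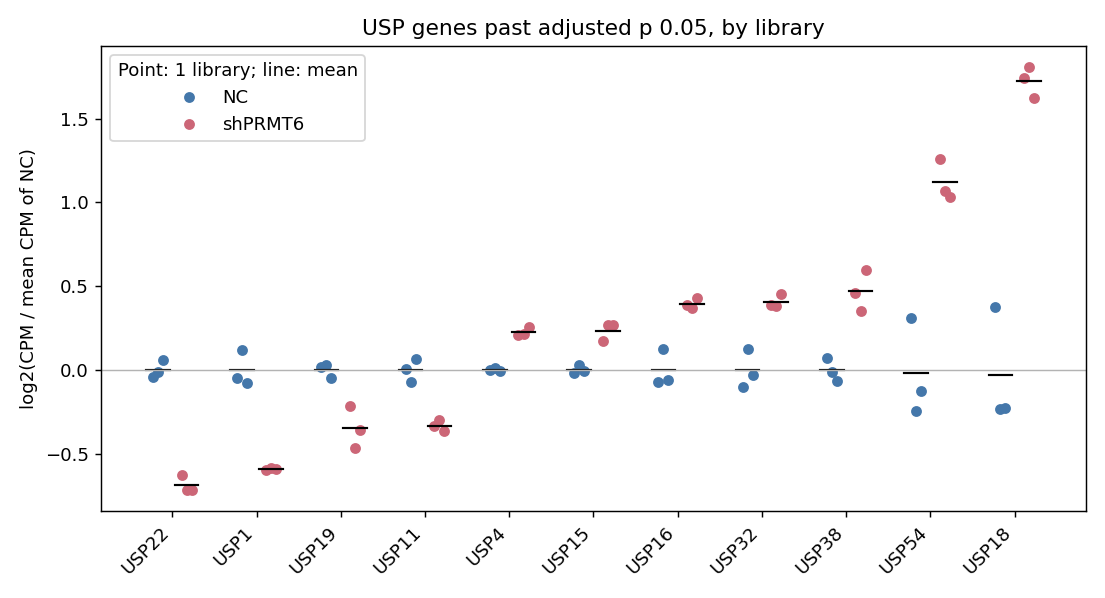
CPM of the 11 USP genes past an adjusted p of 0.05, as log2 of the ratio to the NC mean, with a point for each library and a line for the group mean. In each of the 11 genes, all 3 shPRMT6 points lie on one side of all 3 NC points, from USP22 (log2 fold change -0.69) to USP18 (1.73).

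**Figure D3:**
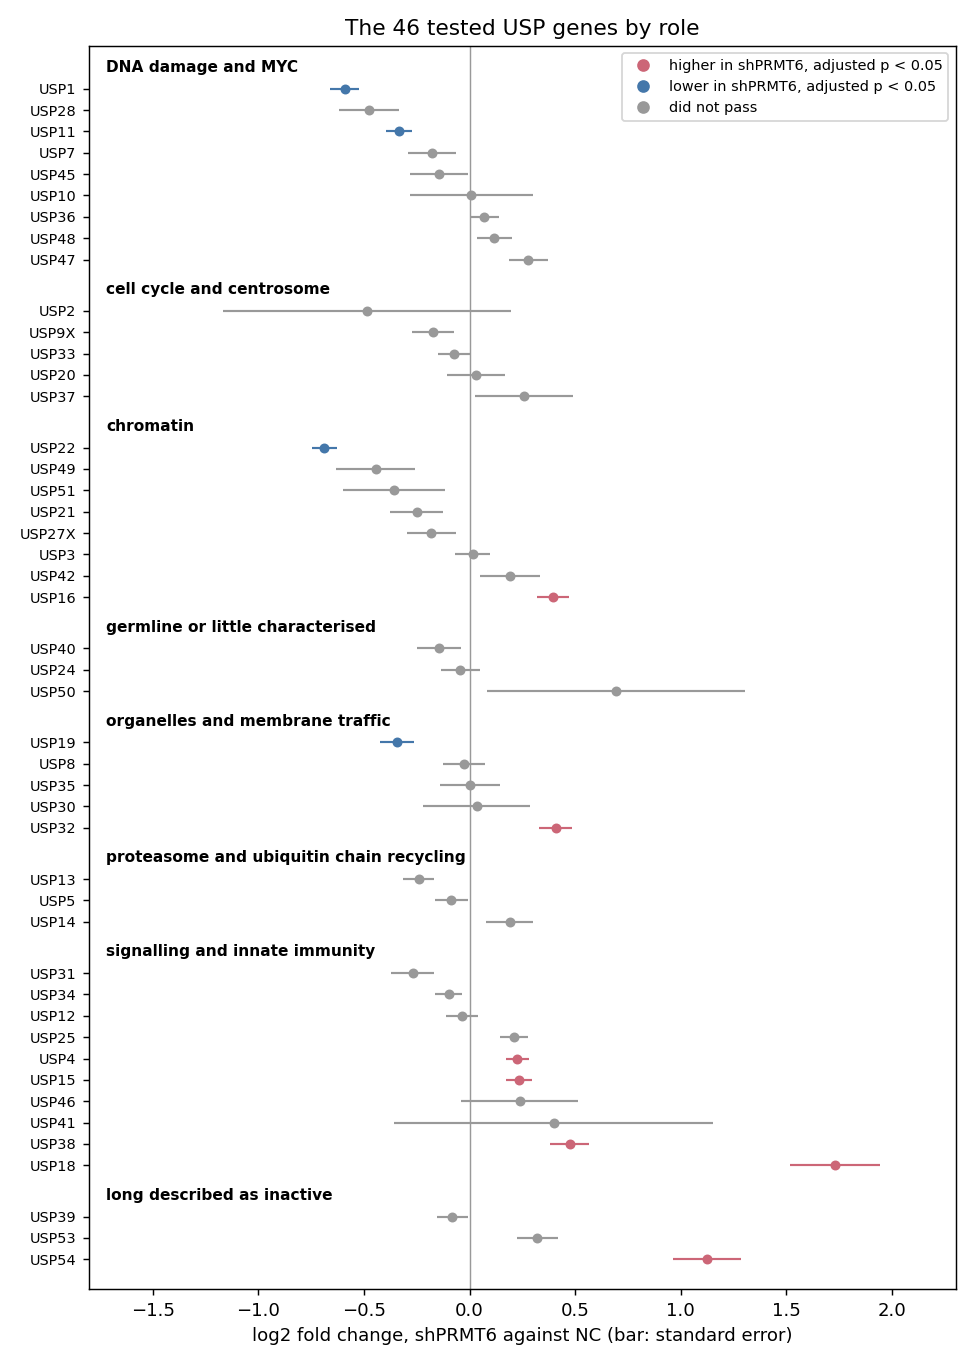
Log2 fold change of shPRMT6 against NC for the 46 tested USP genes in groups by role, with the standard error as a bar. The 4 genes that fell and the 7 that rose are coloured. Of the 7, 4 stand in the signalling and innate immunity group, which holds 10 tested genes (40.0%, against 9.51% of all genes higher).

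Among 8 tested members that act on chromatin, USP22 fell and USP16 rose. USP22 (ENSG00000124422, chr17:20999593-21043760, minus strand, GRCh38) removes ubiquitin from histones H2A and H2B as a subunit of the SAGA coactivator complex. Its RNA level was 189, 193 and 203 CPM in NC and 126, 119 and 118 CPM in shPRMT6. All shPRMT6 libraries were lower than all NC libraries, with a mean of 195 ± 7.03 CPM in NC and 121 ± 4.44 CPM in shPRMT6 (SD, n = 3). USP22 thus had a log2 fold change of -0.69 (SE 0.0584, edgeR adjusted p = 0.00118). Of the exon bases of USP22, 13.2% are overlapped by genes on the opposite strand, and whether counting used strand is not given in the sources used here. These genes are AC087393.2 and CCDC144NL-AS1. CCDC144NL-AS1 had at most 4 reads in a library, and the reads of AC087393.2 are not reported here. The part of this overlap in the level of USP22 was not tested.

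USP16, which deubiquitinates histone H2A, moved the other way. Its level was 47.6, 54.4 and 47.9 CPM in NC and 65.5, 64.5 and 67.3 CPM in shPRMT6, with no overlap between the groups (log2 fold change 0.40, SE 0.0755, edgeR adjusted p = 0.0152). The other histone deubiquitinases did not pass the test. USP27X and USP51, which share the catalytic fold of USP22 and compete for the same SAGA adaptor proteins, had log2 fold changes of -0.18 (SE 0.116) and -0.36 (SE 0.241). USP3, another enzyme for H2A, had 47.0 CPM in NC and 47.5 CPM in shPRMT6 (log2 fold change 0.01, SE 0.0844). The values of USP3 may hold reads of USP3-AS1, since 22.7% of its exon bases lie opposite to other genes. USP21, USP42 and USP49 had log2 fold changes of -0.25, 0.19 and -0.44.

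The adaptors of USP22 in the SAGA deubiquitinase module were examined beside it. Of 6 genes, 2 fell and none rose. That is 33.3% passing, against 18.6% of all genes tested (9.51% higher and 9.06% lower). With so few genes, nothing particular to the module is read from it. ATXN7L3, the adaptor that activates USP22, fell from 99.4 to 60.1 CPM (log2 fold change -0.73, SE 0.0671, edgeR adjusted p = 0.00153), and its raw counts were 5743, 7052 and 6420 in NC and 3874, 3585 and 4135 in shPRMT6. ATXN7L2, a paralog of ATXN7, fell from 4.86 to 3.13 CPM (log2 fold change -0.63, edgeR adjusted p = 0.0401). It passed in 1 of 6 fits that left out a library. ENY2, the small subunit that also serves messenger RNA export, had 65.6 CPM in NC and 63.6 CPM in shPRMT6 and did not pass. ATXN7, ATXN7L1 and ATXN7L3B did not pass either, with log2 fold changes of -0.39, 0.45 and -0.27.

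In the group of DNA damage and MYC, USP1 and USP11 fell, and none of the 9 members rose past the threshold. That is 22.2% passing, against 18.6% of all genes tested (9.51% higher), and nothing particular to the group is read from it. Of the 9 members, 4 had a log2 fold change above 0. USP1 (ENSG00000162607, chr1:62436297-62451804, plus strand) reverses the monoubiquitination of FANCD2, FANCI and PCNA in DNA repair. Its level was 106, 119 and 104 CPM in NC and 72.6, 73.2 and 73.0 CPM in shPRMT6. The 3 knockdown libraries were close together (SD 0.331 CPM) and lay under every control library. The log2 fold change was -0.59 (SE 0.0703, edgeR adjusted p = 0.00310). No exon base of USP1 overlaps another gene, and none of its 75-base stretches is shared.

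USP11, which acts on BRCA2-dependent repair, had 96.4, 91.6 and 101 CPM in NC and 76.2, 78.2 and 74.6 CPM in shPRMT6. The groups did not overlap (log2 fold change -0.33, SE 0.0615, edgeR adjusted p = 0.0134). USP28, an enzyme that stabilizes MYC, had 5.06, 5.92 and 5.74 CPM in NC and 3.75, 4.42 and 3.84 CPM in shPRMT6, and did not pass the test (log2 fold change -0.48, SE 0.142, edgeR adjusted p = 0.0632). USP7, which stabilizes MDM2, had a log2 fold change of -0.18 (SE 0.115), and USP10, a cytoplasmic enzyme linked to stress granules, one of 0.01 with a wide error (SE 0.291). USP36, USP45, USP47 and USP48 had log2 fold changes from -0.14 to 0.28 and did not pass.

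The RNA levels of 3 substrates of USP1 were examined beside it. All 3 fell, against 9.06% of all genes tested. No NC library overlapped a shPRMT6 library in any of them, and the groups did not overlap for 40.2% of all genes either. These genes were listed with earlier results of the same data known, so the counts are a description. FANCD2 fell from 48.7 to 25.3 CPM (log2 fold change -0.95), FANCI from 98.9 to 55.7 CPM (-0.83) and PCNA, the sliding clamp of DNA polymerase, from 126 to 71.0 CPM (-0.83), with edgeR adjusted p values of 0.00149, 0.00168 and 0.00502. WDR48, the activating partner that USP1 shares with USP12 and USP46, had 48.6 CPM in NC and 49.4 CPM in shPRMT6 and did not pass (log2 fold change 0.02, SE 0.0676). WDR20, which further activates USP12 and USP46, had a log2 fold change of -0.09 (SE 0.266). Neither USP12 nor USP46 passed the test (-0.04 and 0.24).

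Of 2 partners of USP7, GMPS fell and MDM2 did not pass (log2 fold change 0.13). GMPS, a metabolic enzyme that binds USP7, fell from 182 to 144 CPM (log2 fold change -0.34). The stress granule proteins G3BP1 and G3BP2, which bind USP10, changed in opposite directions. G3BP1 fell (log2 fold change -0.30, edgeR adjusted p = 0.0236), whereas G3BP2 rose from 103 to 245 CPM (log2 fold change 1.26, SE 0.131, edgeR adjusted p = 0.00207).

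**Figure D4:**
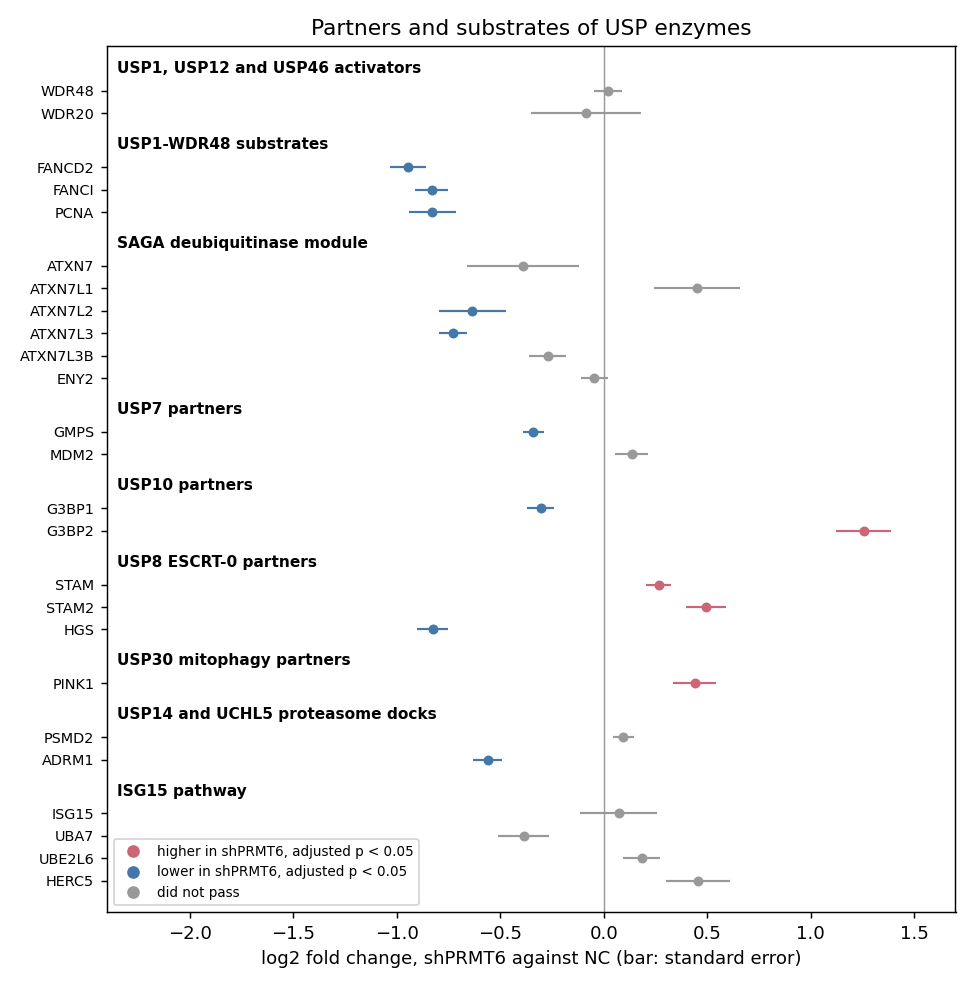
Log2 fold change of shPRMT6 against NC for the 25 tested partner and substrate genes of USP enzymes, with the standard error as a bar. The 3 substrates of USP1 lie between -0.95 and -0.83, WDR48 is near 0 (0.02), and G3BP2 is the highest (1.26).

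The sequence before a listed start site was read for the members with the smallest p among those that fell. The RefSeq promoter table (GRCh38.p14) held 53 promoters of USP genes, several genes having more than 1. It held none for USP9X, USP18, USP24, USP26, USP31, USP37, USP41, USP42, USP43, USP44, USP48 and USP51, so the shares below do not cover them. For USP1 a downstream start is printed. The printed windows of USP1, USP11 and USP22 all lie inside the genes as annotated. On the plus strand USP1 begins at chr1:62436297 and USP11 at chrX:47232690. On the minus strand USP22 begins at chr17:21043760. The 250 bases before the start are printed for USP1 (chr1:62436799-62437048, plus strand), USP11 (chrX:47232759-47233008, plus strand) and USP22 (chr17:21043012-21043261, minus strand), 5′ to 3′, with motif matches in capitals.
USP1: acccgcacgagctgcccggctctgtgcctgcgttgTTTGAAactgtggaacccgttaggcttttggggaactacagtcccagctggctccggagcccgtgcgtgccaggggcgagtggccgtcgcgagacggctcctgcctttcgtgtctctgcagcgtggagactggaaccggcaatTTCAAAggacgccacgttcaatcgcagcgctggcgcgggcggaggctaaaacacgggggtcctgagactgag
USP11: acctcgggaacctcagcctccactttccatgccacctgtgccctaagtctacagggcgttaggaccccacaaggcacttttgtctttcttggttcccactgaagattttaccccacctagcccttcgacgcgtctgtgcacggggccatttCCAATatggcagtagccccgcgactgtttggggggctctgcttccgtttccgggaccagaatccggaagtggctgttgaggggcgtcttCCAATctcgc
USP22: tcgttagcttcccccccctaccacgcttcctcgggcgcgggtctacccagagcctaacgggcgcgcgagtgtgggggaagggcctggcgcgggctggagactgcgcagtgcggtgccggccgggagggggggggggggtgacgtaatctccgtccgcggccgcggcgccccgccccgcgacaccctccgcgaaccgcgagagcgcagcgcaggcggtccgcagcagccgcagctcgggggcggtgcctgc

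Letters were searched on both strands in the 300 bases around each start. The letters were TTTGAA (the core of the CHR element of cell cycle promoters), CCAAT (the box of the same name), TTTNNCGC (E2F-type) and GAAA repeated with any 2 bases between (ISRE-type, of interferon-responsive promoters), and no matches overlap in the printed windows. The printed USP1 start holds 2 CHR matches, and a further start of USP1, upstream of it, holds no CHR match and 2 CCAAT matches. USP11 holds 2 CCAAT matches and USP22 no match. CHR letters stand in 5 of the 53 member promoters (9.43%) and in 15.2% of all 35116 promoters, and CCAAT letters in 13 of 53 (24.5%) and in 34.6%. E2F-type letters stand in 5 of 53 (USP3, USP7, USP34, USP35 and USP49) and in 6.89% of all promoters, and ISRE-type letters in none of 53 and in 3.57%. A match is a description of letters and not a site that a factor uses.

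In organelles and membrane traffic, USP32 rose and USP19 fell among 5 tested members. That is 40.0% passing, against 18.6% of all genes tested, and with so few members nothing is read from it. USP32, a membrane-anchored enzyme of the endosomal system, had 64.0, 75.1 and 67.3 CPM in NC and 89.8, 89.7 and 94.2 CPM in shPRMT6, and the groups did not overlap (log2 fold change 0.41, SE 0.0766, edgeR adjusted p = 0.0145). Of the 75-base stretches of USP32, 13.5% are shared with other genes, among them USP6, which arose in part from USP32, so part of its reads is uncertain. USP6 had no reads. USP19, which is anchored in the endoplasmic reticulum, had 66.1, 66.5 and 63.2 CPM in NC and 56.2, 47.2 and 51.0 CPM in shPRMT6. All 3 knockdown libraries were lower (log2 fold change -0.34, SE 0.0815, edgeR adjusted p = 0.0315).

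USP8, USP30 and USP35 did not pass. Partner genes were listed for USP8 and USP30 and not for USP35. USP8, which deubiquitinates receptors on endosomes, had 47.9 ± 3.94 CPM in NC and 47.0 ± 4.27 CPM in shPRMT6 (SD, n = 3). Its 3 listed ESCRT-0 partners all passed, against 18.6% of all genes tested, and they did not move in 1 direction. HGS fell from 154 to 86.8 CPM (log2 fold change -0.82, edgeR adjusted p = 0.00147), while STAM rose from 63.7 to 76.6 CPM (0.27) and STAM2 from 42.3 to 59.6 CPM (0.49), with edgeR adjusted p values of 0.0271 and 0.0175. USP30, the mitochondrial enzyme that opposes mitophagy, had a log2 fold change of 0.03 (SE 0.254). PINK1, the kinase that starts mitophagy, rose from 78.0 to 106 CPM (log2 fold change 0.44, edgeR adjusted p = 0.0304).

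The signalling and innate immunity group held 4 of the 7 members that rose. That is 40.0% of its 10 members, against 23.9% of all tested members passing in either direction and 9.51% of all genes higher. With so few members, nothing particular to the group is read from it. USP4 and USP15 passed in none of the 6 fits that left out 1 library. USP18, USP38, USP15 and USP4 rose, and none of the 10 members fell. USP18 (ENSG00000184979, chr22:18149899-18177397, plus strand) removes the ubiquitin-like modifier ISG15 and dampens interferon signalling. Its raw counts were 121, 108 and 89 in NC and 356, 360 and 349 in shPRMT6, which is 2.16, 1.42 and 1.43 CPM in NC and 5.59, 5.85 and 5.15 CPM in shPRMT6. The lowest shPRMT6 library was above the highest NC library, and this was the largest change among the 46 tested members (log2 fold change 1.73, SE 0.214, edgeR adjusted p = 0.00355). Of the 75-base stretches of USP18, 18.3% are shared with USP41, a partial copy on the same chromosome. USP41 had 0.0715 to 0.381 CPM in NC and 0.146 to 0.546 CPM in shPRMT6 and did not pass (log2 fold change 0.40, SE 0.754).

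The genes of ISG15 conjugation did not pass with USP18. ISG15 itself had 10.3 CPM in NC and 10.8 CPM in shPRMT6 (log2 fold change 0.07, SE 0.188). UBA7, UBE2L6 and HERC5, the enzymes that attach ISG15, had log2 fold changes of -0.39, 0.18 and 0.45, with edgeR adjusted p values of 0.0786, 0.219 and 0.0902.

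USP38, which acts on antiviral signalling, had 25.6, 24.2 and 23.3 CPM in NC and 33.5, 31.2 and 36.9 CPM in shPRMT6, without overlap (log2 fold change 0.47, SE 0.0928, edgeR adjusted p = 0.0166). USP4 had 56.5, 56.9 and 56.3 CPM in NC and 65.4, 65.5 and 67.6 CPM in shPRMT6 (log2 fold change 0.23, SE 0.0561, edgeR adjusted p = 0.0357). USP15 had 60.7, 62.7 and 61.2 CPM in NC and 69.2, 74.0 and 74.0 CPM in shPRMT6 (log2 fold change 0.24, SE 0.0602, edgeR adjusted p = 0.0399). USP4 and USP15, paralogs that act on TGF-beta and other signalling pathways, rose by small amounts. No knockdown library of either overlapped a control library, which also held for 40.2% of all genes tested. Neither passed in any of the 6 fits that left out 1 library. USP25, a regulator of interleukin signalling, had 52.4 ± 2.42 CPM in NC and 60.6 ± 1.78 CPM in shPRMT6 (SD, n = 3) and did not pass (edgeR adjusted p = 0.0745). USP31 and USP34 had log2 fold changes of -0.27 and -0.10. Of the 75-base stretches of USP31, 22.6% are shared.

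USP39, USP53 and USP54 were grouped as proteins long described as lacking deubiquitinase activity. USP54 rose, and the others did not pass. USP54 (ENSG00000166348, chr10:73497538-73625953, minus strand) had 24.6, 16.7 and 18.2 CPM in NC and 47.5, 41.6 and 40.5 CPM in shPRMT6. The groups were far apart, at 218% of the NC mean (log2 fold change 1.13, SE 0.160, edgeR adjusted p = 0.00566). Of its exon bases, 16.1% lie opposite to PPP3CB-AS1, which had 3.73 CPM in NC and 3.74 CPM in shPRMT6. USP53, its paralog and a tight junction protein, had 76.2 ± 9.05 CPM in NC and 95.2 ± 5.06 CPM in shPRMT6 (SD, n = 3), without overlap but with an edgeR adjusted p of 0.0677. USP39, a splicing factor, had a log2 fold change of -0.08 (SE 0.0724). USP18 and USP54 were the only members past the adjusted p threshold with a change of more than 1 on the log2 scale. A change over 1 with an unadjusted p under 0.05, the threshold of the methods, was met by 2 members and by 5.92% of all genes.

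No member passed in the cell cycle and centrosome group or among the enzymes of the proteasome and of chain recycling. USP9X, a large X-linked enzyme that acts in mitosis and signalling, had 192 ± 23.0 CPM in NC and 170 ± 9.51 CPM in shPRMT6 (SD, n = 3), and the groups overlap (log2 fold change -0.17, SE 0.0989). USP20 and USP33, paralogs that act on centrosomes and receptors, had log2 fold changes of 0.03 and -0.07. USP37, which stabilizes cyclin A, had one of 0.26 (SE 0.230), and 32.8% of its exon bases lie opposite to another gene. USP2, with 8 to 40 reads in NC, was too shallow for a small change to be detectable (-0.48, SE 0.680).

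USP5, USP13 and USP14 recycle ubiquitin. USP5 had 152, 128 and 148 CPM in NC and 137, 134 and 132 CPM in shPRMT6, and the groups overlap (log2 fold change -0.09, SE 0.0770, edgeR adjusted p = 0.498). USP14, the reversible subunit of the proteasome, had 119, 121 and 116 CPM in NC and 128, 119 and 159 CPM in shPRMT6 (log2 fold change 0.19, SE 0.111). Replicate 3 of shPRMT6 was the highest library, and the groups overlap. USP13, a paralog of USP5, had 50.5 ± 2.50 CPM in NC and 42.7 ± 1.71 CPM in shPRMT6 (SD, n = 3) and did not pass (edgeR adjusted p = 0.0644). Of the proteasome subunits that receive deubiquitinases, ADRM1, the dock of UCHL5, fell from 214 to 145 CPM (log2 fold change -0.56, edgeR adjusted p = 0.00364), and PSMD2, which binds USP14, did not pass (0.09).

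USP24, USP40 and USP50, the tested members of germline or little characterised function, had log2 fold changes of -0.04, -0.14 and 0.69. USP50 had 8, 39 and 59 reads in NC and lies opposite to USP8 over 28.6% of its exon bases, and its change has a large error (SE 0.610).

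All 25 partner genes were tested and 13 passed, 4 higher and 9 lower, which is 52.0% against 18.6% of all genes. These genes were listed with earlier results of the same data known, so the share is a description. Without 1 library, FANCD2, FANCI, PCNA, ATXN7L3, GMPS, HGS, ADRM1 and G3BP2 passed in 6 of 6 fits, G3BP1 in 3, STAM and STAM2 in 2, and ATXN7L2 and PINK1 in 1.

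Ratios between close paralogs were computed in each library. In 7 of 17 pairs the ratio did not overlap between the groups, and each of these reached the smallest p that 3 against 3 libraries can give by exact permutation (two-sided, p = 0.1) and 0.243 after Benjamini-Hochberg adjustment over the 17 pairs. None of the pairs can therefore pass a threshold of 0.05. The levels of 40.2% of all tested genes did not overlap between the groups either, so a count of 7 in 17 is near the background, and the ratios are given as descriptions. The log2 ratio of USP4 to USP11 was -0.77 in NC and -0.21 in shPRMT6, and the ratio of USP4 to USP15, which both rose, differed by -0.01 between the groups. The ratio of USP11 to USP15, a paralog that shares its domain architecture, differed by -0.57. The log2 ratio of USP25 to USP28 was higher in shPRMT6 by 0.69, that of USP16 to USP45 by 0.54, and that of USP53 to USP54 lower by 0.82. The ratio of USP22 to USP27X differed by -0.50 and that of USP35 to USP38 by -0.47. The ratio of USP18 to USP41 spread widely within both groups and overlapped.

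**Figure D5:**
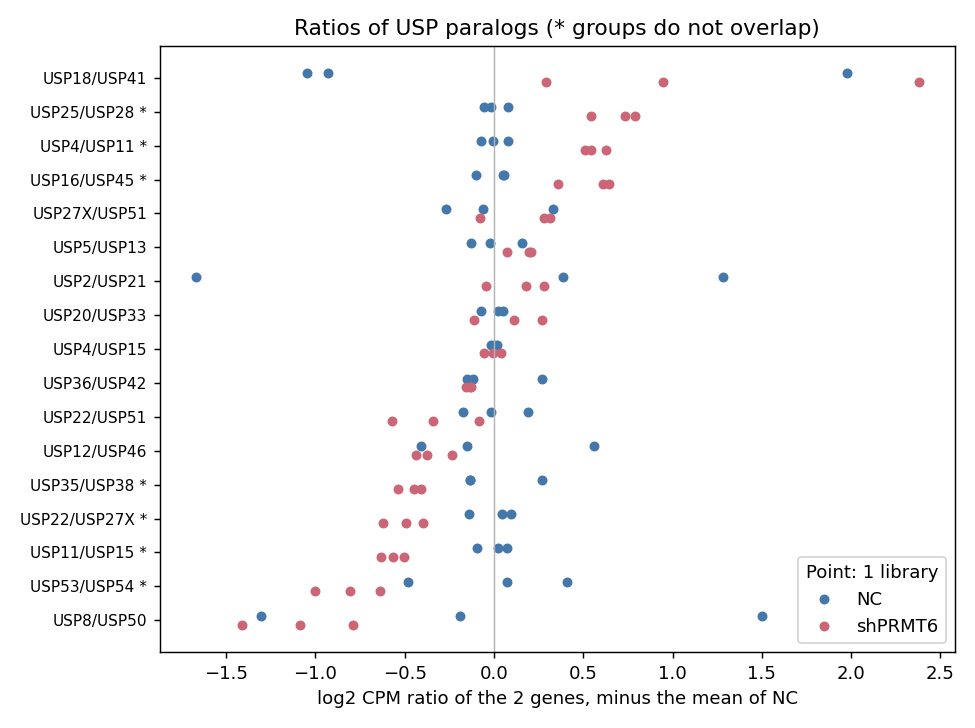
Log2 ratio of the CPM of 2 paralogous USP genes in each library, with the NC mean of that ratio set to 0, for 17 pairs. An asterisk marks the 7 pairs whose 3 shPRMT6 points lie apart from the 3 NC points, such as USP25/USP28 (a difference of 0.69) and USP53/USP54 (-0.82), while USP4/USP15 differs by -0.01.

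Deubiquitinases of other folds were compared as a background for the family. Of 37 such genes tested, 8 passed (21.6%, against 18.6% of all genes tested), with 5 higher and 3 lower. Nothing particular to these genes is read from that share. UCHL1, a neuronal ubiquitin hydrolase, rose from 453 to 635 CPM (log2 fold change 0.49, edgeR adjusted p = 0.0321), and UCHL5, the hydrolase at the proteasome, fell (-0.30, edgeR adjusted p = 0.0269). Among the OTU enzymes OTUB2 (log2 fold change 1.05), OTUD1 (0.66) and YOD1 (0.48) rose, and TNFAIP3, which restrains NF-kappa B, fell from 49.5 to 29.5 CPM (-0.75, edgeR adjusted p = 0.00149). STAMBP, an endosomal metalloprotease, fell (-0.40), and JOSD1, of the Josephin class, rose (0.33). Outside the symbol rule but with the USP fold, CYLD, a tumour suppressor that cleaves linear and K63-linked chains, rose from 90.9 to 160 CPM (log2 fold change 0.81, SE 0.148, edgeR adjusted p = 0.0128). PAN2, whose USP-like domain is inactive and which shortens poly(A) tails, fell (-0.49, edgeR adjusted p = 0.00519), and USPL1, which acts on SUMO, did not pass (0.38). The 4 ubiquitin genes and the activating enzymes UBA1 and UBA6 had log2 fold changes between -0.19 and 0.17, and none passed. OTUB2, TNFAIP3, CYLD and PAN2 passed in all 6 fits without 1 library, OTUD1 and JOSD1 in 5, STAMBP in 2, and UCHL1, UCHL5 and YOD1 in 1.

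Letters that pair with the shRNAs were looked for in the 3′ UTRs of the members, since an shRNA can act on other RNAs through its seed (bases 2 to 8 of its antisense strand). The study lists 3 PRMT6 shRNAs, and the labels do not name the one in each library. The paper names #2 and #3 in its cell growth assays and #2 in a PCR measurement of U87 cells. It names none for the RNA sequencing. Their target sequences are shown with the letters that pair with the seed in capitals.
shPRMT6 #1: gcccagtttgagaTGCCTTAt
shPRMT6 #2: caccggcattctgAGCATCTt
shPRMT6 #3: cacggacgtttcaGGAGAGAt

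Of 45 tested members with an annotated 3′ UTR of at least 50 bases (GENCODE 29), 7 hold the letters of #1, 10 those of #2 and 7 those of #3, which is 15.6%, 22.2% and 15.6%. Of all 13116 tested genes with such a 3′ UTR, 15.4%, 15.4% and 19.4% hold them. Among the members that fell, only USP22 holds any, with 2 matches to #2. USP1, USP11 and USP19 hold none. Of the members that rose, USP15 holds letters of all 3 shRNAs and USP38 those of #2. The windows of USP22 show its matches, 5′ to 3′, with the matching letters in capitals.
USP22 match 1: gcacgtggaAGCATCTcgcggtttt
USP22 match 2: agccccagcAGCATCTgaactgagg

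Whether these matches had a part in any change was not tested.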

How the data were processed

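RNA sequencing covered 3 NC and 3 shPRMT6 libraries of U87 cells. The authors deposited raw read counts per gene and FPKM values (scaled to transcript length and library size), in which a gene without reads is listed at 0.0001. The submitters' processing notes name HISAT2, HTSeq 0.13.5 and GRCh38. The annotation release and the use of strand are not given in the sources used here. Symbols were taken from a list of gene names and, where it gave none, from GENCODE 29 (60588 of 60612 identifiers had a symbol). Gene types and positions were taken from GENCODE 29 (58394 of 60612 identifiers matched).

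Counts were tested with edgeR 4.0.16 in R 4.3.3 (quasi-likelihood test after filterByExpr and TMM scaling, no block, Benjamini-Hochberg adjustment over all 18106 genes). CPM and SD are over 3 libraries after TMM scaling. Levels between genes were compared in FPKM. Ratios of paralogs were tested by exact permutation (SciPy 1.17.1, Python 3.11.15). The programs were tested on simulated data. Within a group, libraries differed beyond counting error (chi-square per degree of freedom 48.2 to 78.4), so none was a duplicate. Nothing states that they came from separate cultures beyond the word independent, so p-values measure the spread between these libraries.

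Members are named with values per library where they passed an adjusted p of 0.05. The others are named as the 5 highest by FPKM, those not tested, paralogs of named members, and by group. Partner and other deubiquitinase genes are named where they passed, with WDR48, CYLD, USPL1 and PRMT6. The partner genes that did not pass and the genes on the opposite strand were named after their values were seen. The list of partner genes was shortened by 2 genes, not reported here, after its values were seen. The members and all lists were chosen with earlier results of these data known. Alternatives were DESeq2 1.42.0, upper quartile or no scaling factors, a filter of at least 10 counts in every library or 1 in any, a replicate block, limma 3.58.1 on log2(FPKM + 1) and log2(FPKM + 0.1), stricter thresholds, and leaving out each library. Shared reads were measured as 75-base stretches present in another gene in the same orientation.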

Additional observations from a re-analysis of the deposited data

How the results depend on the processing

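USP22, USP1 and USP18 passed an adjusted p of 0.05 in 15 of 15 alternative fits, and USP54 in 14, with the exception of limma on log2(FPKM + 1) without a filter (adjusted p = 0.0737). USP32 and USP38 passed in 10, USP11 and USP16 in 9, USP19 and USP4 in 7 and USP15 in 4. None of these 11 members changed sign in any of these fits, while others with small or poorly measured differences did, such as USP2 (log2 fold change -0.96 to 0.05), USP41 (-0.04 to 0.77) and USP46 (-0.03 to 0.51). The same-numbered libraries share only a number (correlations of their deviations -0.03 to -0.02, and 0 of 6 libraries correlated best with their own number), and with the replicate number as a block 5 members passed in place of 11 (3 higher, 2 lower), with 1858 in place of 3362 genes overall. Under that block 5 in place of 10 other deubiquitinase and ubiquitin genes passed (3 higher, 2 lower) and 2 in place of 4 partner genes rose, and PRMT6 did not pass (-0.88). In limma on log2(FPKM + 1) without a filter 4 members passed (2 higher, 2 lower), 4 other deubiquitinase genes (2 and 2) and 6 partners (1 and 5), and PRMT6 stood at -0.47. With an adjusted p under 0.01, 4 members passed (2 higher, 2 lower), 3 other deubiquitinase genes (1 and 2) and 8 partners (1 higher). With a log2 change above 1 and an unadjusted p under 0.05 these counts were 2 members (2 higher, 0 lower), 1 other deubiquitinase gene (1 and 0) and 1 partner (1 and 0). Without 1 library the members past the threshold numbered 4 to 10, of which 2 to 7 rose and 2 to 3 fell, the other deubiquitinase genes 5 to 16 (higher 3 to 12, lower 2 to 4) and the partners 8 to 14 (higher 1 to 4, lower 7 to 10), and the PRMT6 log2 fold change lay between -1.0 and -0.73. The member count was 4 without NC replicate 3 or shPRMT6 replicate 3, and 5 without shPRMT6 replicate 1 or 2. PRMT6 was not past the threshold without NC replicate 1, shPRMT6 replicate 1 or shPRMT6 replicate 2. Depth limits USP2, USP41 and USP50, whose standard errors exceed 0.6.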

Other observations

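Several members varied more within a group than between the groups. USP46, which acts on glutamate receptors in neurons, had 11.6, 26.0 and 20.6 CPM in NC and 20.8, 23.2 and 24.6 CPM in shPRMT6. USP10 had 37.5, 35.9 and 66.7 CPM in NC and 33.7, 52.9 and 54.3 CPM in shPRMT6. USP37 had 17.2, 24.3 and 12.6 CPM in NC and 19.6, 22.5 and 22.6 CPM in shPRMT6. In USP46 and USP37 the 3 NC libraries span the whole range of the shPRMT6 libraries.

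USP30 was highest in replicate 1 of both groups, at 7.78 CPM in NC and 8.98 CPM in shPRMT6, and between 4.92 and 6.01 CPM in the other 4 libraries. USP2 had 40, 8 and 31 reads in NC and 0.292 to 0.330 CPM in shPRMT6.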
